A study of Mus musculus with 6 samples.

Results

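The expression of 10 genes by which alveolar macrophages are recognized was followed in bulk RNA of whole lungs from GR+/+ and GRdim/dim mice after hemorrhagic shock (HS). The genes were *Marco*, *Chil3*, *Mrc1*, *Pparg*, *Siglecf*, *Ear2*, *Cidec*, *Atp6v0d2*, *Abcg1* and *Csf2ra*. They were taken by symbol, with earlier results of these data known. They are 10 of the 54532 genes in the deposited counts, and each symbol had 1 row. All 10 passed the filter on low counts, as did 16568 genes in all. In GRdim/dim mice a point mutation of *Nr3c1*, the gene of the glucocorticoid receptor (GR), impairs receptor dimerization, and it is present in every cell of the body. GR+/+ littermates on the mixed background 129/SvEv x C57BL/6 served as controls. Both genotypes, aged between 10 and 16 weeks, had a mean arterial pressure of 35 mmHg for 1 h and were then resuscitated for 4 h under anesthesia and ventilation. Each genotype gave 3 libraries of poly(A)-captured RNA, one per mouse, from 2 female and 1 male GR+/+ mice and from 1 female and 2 male GRdim/dim mice. No lung without HS is among these libraries, so every comparison below is one of genotypes after HS.

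Alveolar macrophages live on the air side of the alveolus, where they clear surfactant, inhaled particles and dying cells. They arise from fetal monocytes that receive GM-CSF and TGF-beta in the alveolus, and PPAR-gamma, induced by GM-CSF, switches on their lipid-handling program. Glucocorticoids act on macrophages directly and are known to raise scavenger receptors in them. In RNA of whole lung, fewer macrophages and less of an RNA per macrophage cannot be told apart. None of the 10 genes is made by alveolar macrophages alone. *Chil3* is also known from monocytes and developing neutrophils, *Mrc1* from interstitial macrophages and lymphatic endothelium, *Siglecf* and *Ear2* from eosinophils, *Pparg* and *Cidec* from adipocytes, and *Abcg1* and *Csf2ra* from many cell types.

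Reads of *Chil3* and *Ear2* depend on sequence that near relatives share, so the starts of these coding sequences are shown first. They were read from the GENCODE M21 transcripts (GRCm38), and a capital marks a base that differs from the partner at the same position. Within the first 90 coding bases of each pair, 2 bases differed.
Chil3: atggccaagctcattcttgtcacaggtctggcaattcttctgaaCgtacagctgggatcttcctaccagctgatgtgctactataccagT
Chil4: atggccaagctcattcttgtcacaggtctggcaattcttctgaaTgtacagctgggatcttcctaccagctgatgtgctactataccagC
Ear2: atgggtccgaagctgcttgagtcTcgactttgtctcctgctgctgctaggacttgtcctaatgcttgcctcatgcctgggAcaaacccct
Ear1: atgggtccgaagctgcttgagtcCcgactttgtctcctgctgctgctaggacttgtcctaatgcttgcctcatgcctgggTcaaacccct
Over the whole coding sequence, 95.4% of the aligned bases were identical between *Chil3* and *Chil4*, and 95.7% between *Ear2* and *Ear1*. Of all windows of 31 bases in the longest transcript, 44.8% in *Chil3* and 60.5% in *Ear2* also occur in transcripts of other genes, against at most 0.97% in each of the other 8 genes. Of the windows of *Chil3*, 31.1% occur in *Chil4*, 26% in *Gm6522* and 0.663% in the chitinase gene *Chia1*. *Chil4* had 0 to 4 counts per library, *Gm6522* 0 to 1 and *Chia1* 523 to 1745, whereas *Ear1* had 87 to 295 counts. The counting rule for shared reads is not given in the sources used here, so the levels of *Chil3* and *Ear2* are uncertain to that extent. No exon of the 10 genes overlaps an exon of another gene in this annotation.

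Promoter sequences, from 250 bases before to 50 after the annotated start, were taken from RefSeq (GRCm38.p6), where 8 of the 10 genes had an entry, with 11 promoters. *Atp6v0d2* and *Abcg1* were not matched. The promoter of *Chil3* (chr3:106167515-106167814, minus strand) is shown because *Chil3* was the one gene of the 10 whose libraries did not overlap between the genotypes. Capitals mark the TATA box letters TATAAA, which begin 3 bases before the annotated start and run across it.
Chil3 promoter: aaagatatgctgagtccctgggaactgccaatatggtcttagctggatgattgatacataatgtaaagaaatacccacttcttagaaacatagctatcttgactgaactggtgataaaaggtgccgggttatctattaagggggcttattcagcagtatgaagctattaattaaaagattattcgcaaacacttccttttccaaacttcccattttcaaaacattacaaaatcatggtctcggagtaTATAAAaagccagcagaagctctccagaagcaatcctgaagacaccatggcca
The glucocorticoid receptor monomer site AGAACA, searched on both strands, was in 0 of the 11 promoters and in 19% of the 32851 promoters in the table. The full palindrome, AGAACA and TGTTCT with 3 bases between them, contains that site on both strands and was in none of the 11 and in 0.00913% of all. The letters GAGGAAGT of a PU.1 site, TTGCGCAA of a C/EBP site and the PPAR direct repeat, 2 copies of AGGTCA with 1 base between them, were in none of the 11 either, and in 3.2%, 0.183% and 0.0396% of all promoters. The STAT motif, TTC and GAA with 4 bases between them, was in 1 promoter of *Cidec* (6.95% of all). The TATA box letters TATAAA were in the promoter of *Chil3* and, on the opposite strand (read as TTTATA), in 1 of the 3 promoters of *Pparg* (13.6% of all). All motifs were searched on both strands. These searches describe only the letters in these windows.

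Levels are given as counts per 1000000 after TMM scaling (CPM). Between genes they were compared as CPM per kilobase of the deposited gene length. *Chil3*, which encodes the secreted chitinase-like protein Ym1, was the highest of the 10 genes with 119.7 ± 41.4 CPM per kilobase (SD, n = 6). *Csf2ra* followed with 36.7 ± 8.78, *Ear2* with 24.0 ± 6.22 and *Abcg1* with 13.8 ± 1.49 CPM per kilobase (SD, n = 6 each). *Marco*, *Atp6v0d2*, *Mrc1* and *Cidec* lay between 8.92 and 6.32 CPM per kilobase on average and could not be ordered, since the libraries of each neighbouring pair overlapped. *Pparg* had 4.54 and *Siglecf*, the lowest, 1.36 CPM per kilobase. Only the steps from *Chil3* to *Csf2ra* and from *Pparg* to *Siglecf* left no overlap between libraries of neighbours in this order. Every gene was detected in every library, with at least 45 counts.

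The comparison of GRdim/dim with GR+/+ lungs asked whether impaired GR changes the alveolar macrophage program after HS. A gene was called a DEG at an adjusted *p*-value under 0.05 (edgeR's quasi-likelihood test, adjusted over 16568 genes) and a log2 fold change (log2FC, GRdim/dim against GR+/+) beyond 0.5. Of the 10 genes, 0 were DEGs, where 0.169% of all genes tested were (0.0724% higher and 0.0966% lower). With edgeR's *p*-value taken unadjusted and under 0.05, 1 of the 10 was different (*Chil3*), where 9.6% of all genes were. *Chil3* was also the 1 gene without overlap between genotypes, against 14.8% of all genes. DESeq2, run as an alternative, called 1 of the 10, again *Chil3*, where it called 1.7% of all genes. Of the 10 log2FC values 7 were below 0, as were 49.1% of all, and their median was -0.05 (0.01 over all genes tested).

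**Figure D1:**
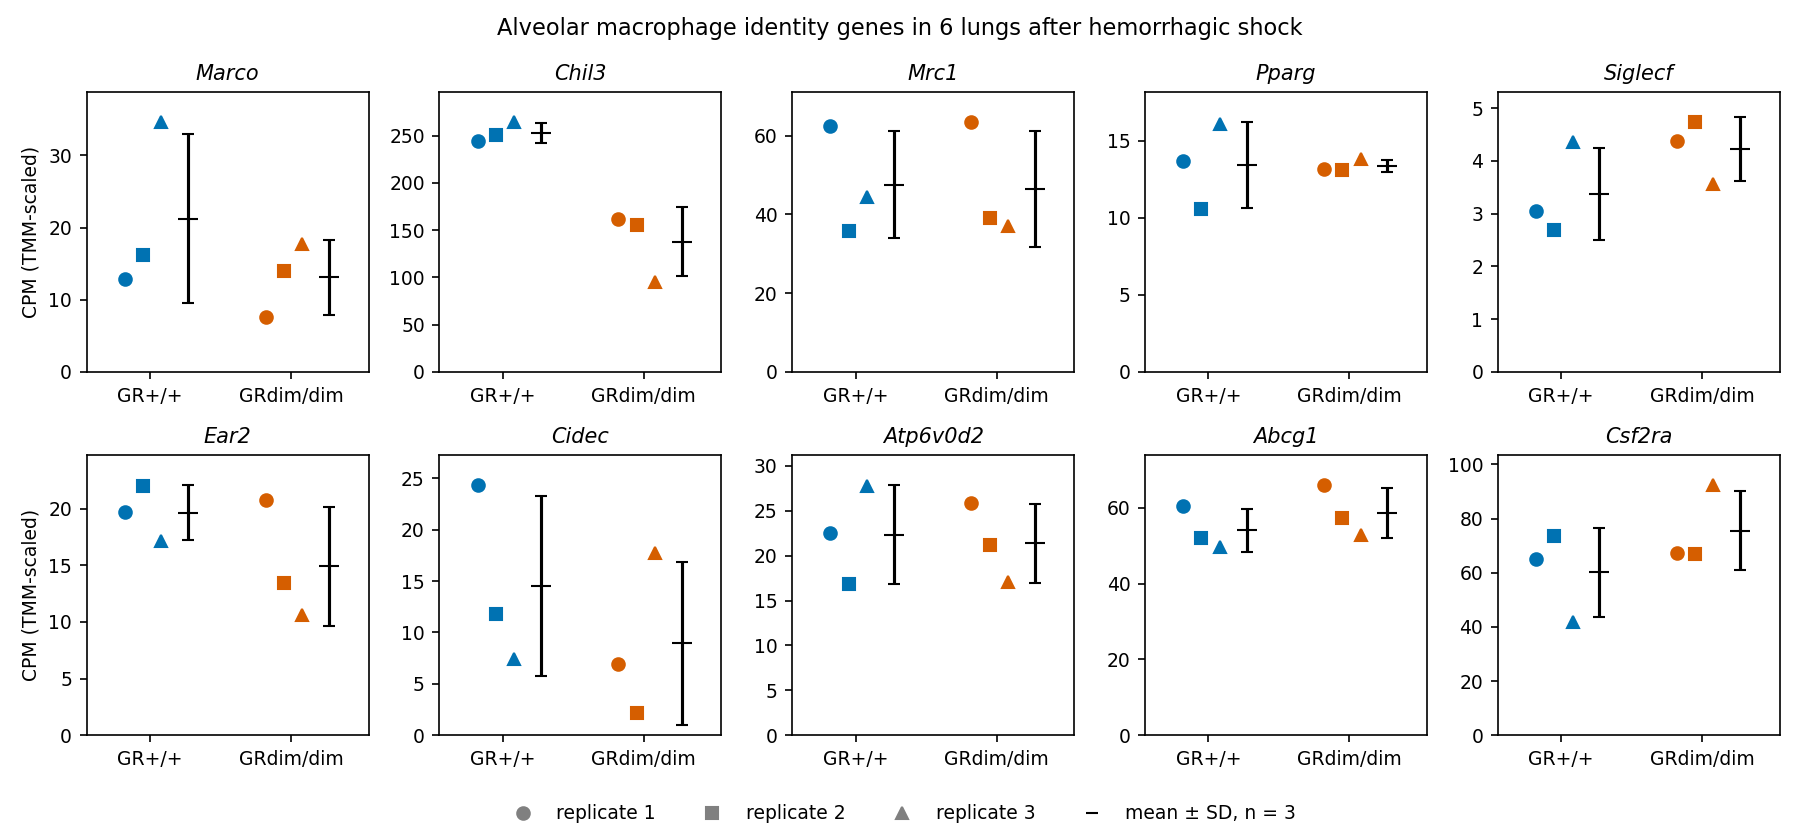
TMM-scaled CPM of the 10 genes (vertical axis, from 0) in each GR+/+ and GRdim/dim library, with the replicate number as symbol and the mean ± SD of 3 libraries as black bars. Only for *Chil3* do all GRdim/dim libraries (95.6 to 161 CPM) lie below all GR+/+ libraries (244 to 264 CPM).

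Among the secreted proteins, *Chil3* (ENSMUSG00000040809, chromosome 3 of GRCm38 from 106147554 to 106167564) was measured at 244, 250 and 264 CPM in the GR+/+ libraries and at 161, 156 and 95.6 CPM in the GRdim/dim libraries. The GR+/+ lungs lay close together and all above the GRdim/dim lungs, of which replicate 3 was the lowest. The means were 253 ± 10.3 and 138 ± 36.5 CPM (SD, n = 3 each). This is a log2FC of -0.88 (standard error, SE, 0.21, edgeR-adjusted *p* = 0.202), or 0.544 times the GR+/+ level with a 95% interval from 0.393 to 0.754. The unadjusted *p*-value from edgeR was 0.00189, which ranked 155 among all genes tested. The exact permutation test of the 20 splits into 3 and 3 gave *p* = 0.1, the smallest it can give. DESeq2 gave an adjusted *p* of 0.0171 with the same log2FC of -0.88, and over all alternatives the adjusted *p* lay between 0.00255, from edgeR without a filter on low counts, and 0.382. With a library left out, DESeq2's adjusted *p* stayed at or below 0.0252 without any one GRdim/dim library and was 0.0949 to 0.102 without any one GR+/+ library. In edgeR, leaving out single libraries gave log2FC values from -1.002 to -0.67.

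*Ear2* (ENSMUSG00000072596, chromosome 14 from 44102654 to 44103534) encodes a secreted ribonuclease of the eosinophil-associated family. It had 19.7, 22.0 and 17.2 CPM in GR+/+ and 20.8, 13.4 and 10.6 CPM in GRdim/dim libraries, so that GRdim/dim replicate 1 lay among the GR+/+ libraries and the other two below them. Its log2FC was -0.39 (SE 0.27, edgeR-adjusted *p* = 0.711), with a 95% interval from -0.99 to 0.20. Without GRdim/dim replicate 1 it was -0.70 (unadjusted *p* = 0.0167, edgeR-adjusted *p* = 0.403), and without GRdim/dim replicate 3 it was -0.20 (unadjusted *p* = 0.441 from edgeR). *Ear1*, with which *Ear2* shares 40.2% of its windows, had a log2FC of -0.01 (SE 0.31). *Ear1* and *Ear2* together gave 26.5 to 28.1 CPM in GR+/+ and 16.2 to 31.6 CPM in GRdim/dim libraries.

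Among the surface receptors, *Marco* (ENSMUSG00000026390, chromosome 1 from 120474538 to 120505024), a scavenger receptor for bacteria and particles, had 12.9, 16.2 and 34.6 CPM in GR+/+ and 7.55, 14.0 and 17.8 CPM in GRdim/dim libraries. GR+/+ replicate 3 stood above all other lungs, and the remaining libraries of both genotypes overlapped. The log2FC was -0.70 (SE 0.40, edgeR-adjusted *p* = 0.640), and without GR+/+ replicate 3 it was -0.15. *Mrc1* (ENSMUSG00000026712, chromosome 2 from 14229392 to 14332057), the mannose receptor CD206, had 62.3, 35.7 and 44.4 CPM in GR+/+ and 63.5, 39.0 and 36.9 CPM in GRdim/dim libraries. One lung of each genotype, replicate 1 in both, stood above the other two, and the log2FC was -0.03 (SE 0.26), with a 95% interval from -0.62 to 0.55. *Siglecf* (ENSMUSG00000039013, chromosome 7 from 43351341 to 43359531), a sialic acid-binding lectin used to gate alveolar macrophages, had 3.05, 2.70 and 4.35 CPM in GR+/+ and 4.37, 4.74 and 3.55 CPM in GRdim/dim libraries. Its log2FC of 0.32 (SE 0.32, edgeR-adjusted *p* = 0.826) rests on 45 to 137 counts per library, and it was 0.19 without GR+/+ replicate 2 and 0.56 without GR+/+ replicate 3.

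*Csf2ra* and *Pparg* stand for the signals that make an alveolar macrophage. *Csf2ra* (ENSMUSG00000059326, chromosome 19 from 61224402 to 61228418), the ligand-binding chain of the GM-CSF receptor, had 65.2, 73.5 and 41.7 CPM in GR+/+ and 67.3, 66.9 and 92.3 CPM in GRdim/dim libraries. GR+/+ replicate 3 was the lowest and GRdim/dim replicate 3 the highest, with the other 4 close together. The log2FC was 0.33 (SE 0.23, edgeR-adjusted *p* = 0.724). It was 0.12 without GR+/+ replicate 3, 0.16 without GRdim/dim replicate 3 and 0.51 without GR+/+ replicate 2. *Pparg* (ENSMUSG00000000440, chromosome 6 from 115360951 to 115490399), the nuclear receptor of the lipid program, had 13.7, 10.6 and 16.1 CPM in GR+/+ and 13.2, 13.1 and 13.8 CPM in GRdim/dim libraries. All GRdim/dim values fell within the range of GR+/+, and the log2FC of -0.01 (SE 0.23) had a 95% interval from -0.52 to 0.50, that is from 0.698 to 1.41 times the GR+/+ level.

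Lipid-handling genes did not behave alike. *Abcg1* (ENSMUSG00000024030, chromosome 17 from 31057698 to 31115777), which exports cholesterol, was the steadiest of the 10 genes. It had 60.4, 52.1 and 49.6 CPM in GR+/+ and 65.9, 57.2 and 52.8 CPM in GRdim/dim libraries, and its highest library was 1.33 times its lowest. Its log2FC was 0.12 (SE 0.17), with a 95% interval from -0.26 to 0.49. *Cidec* (ENSMUSG00000030278, chromosome 6 from 113424634 to 113435760), a lipid droplet protein, varied most, with a highest library at 11.3 times the lowest. It had 24.3, 11.8 and 7.46 CPM in GR+/+ and 6.96, 2.16 and 17.7 CPM in GRdim/dim libraries, so the genotypes overlapped widely. Its log2FC was -0.71 (SE 0.69, edgeR-adjusted *p* = 0.821). With a covariate for sex-linked expression it was -1.60 (edgeR-adjusted *p* = 0.352), and with single libraries left out it ranged from -1.68 (without GRdim/dim replicate 3) to -0.11 (without GR+/+ replicate 1). *Atp6v0d2* (ENSMUSG00000028238, chromosome 4 from 19876841 to 19922605) encodes the d2 subunit of the V-ATPase, the proton pump that acidifies lysosomes, which is found mainly in macrophages and osteoclasts. It had 22.5, 16.8 and 27.8 CPM in GR+/+ and 25.9, 21.2 and 17.1 CPM in GRdim/dim libraries, with all GRdim/dim libraries within the range of GR+/+. The log2FC was -0.06 (SE 0.24), with a 95% interval from -0.61 to 0.48.

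**Figure D2:**
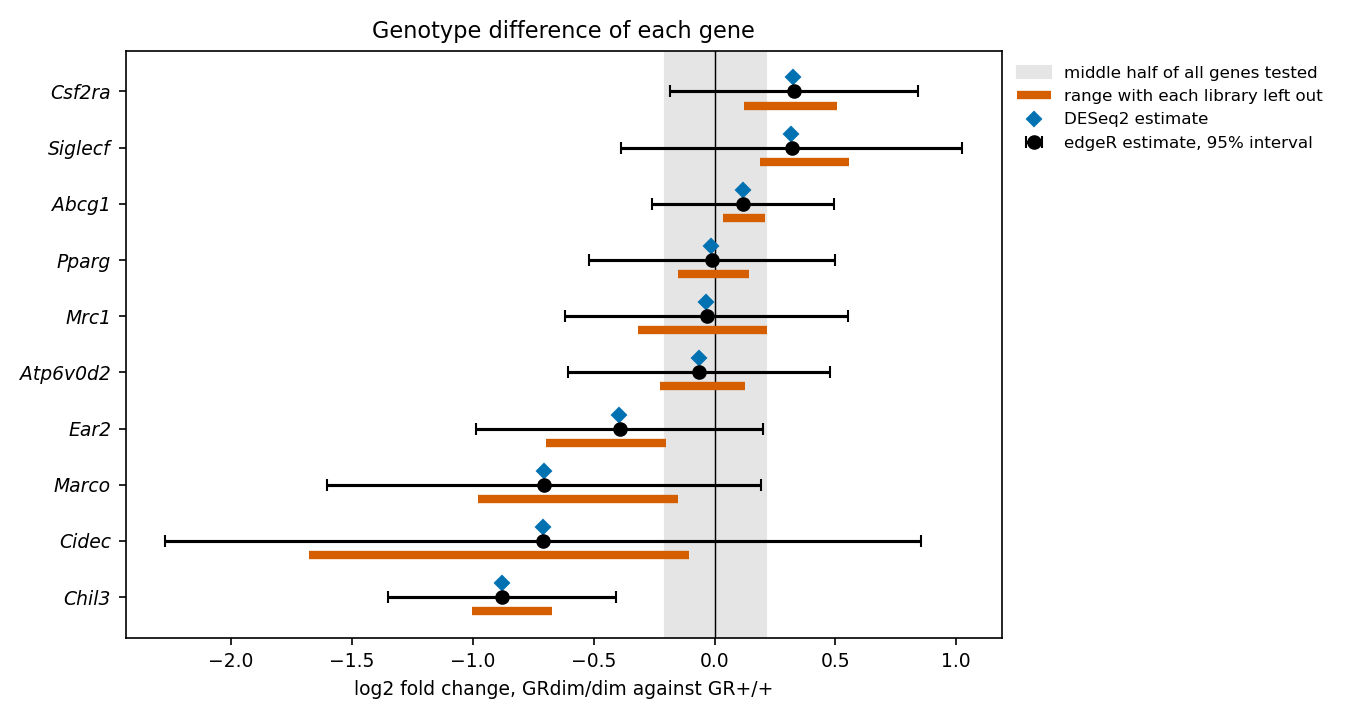
Log2FC of GRdim/dim against GR+/+ (horizontal axis) for each of the 10 genes, with the edgeR estimate and its 95% interval in black, the range over fits that each leave out 1 library in orange and the DESeq2 estimate in blue. The grey band runs from the lower to the upper quartile of all genes tested (-0.21 to 0.21), and the interval of *Chil3*, from -1.35 to -0.41, is the one that does not reach 0.

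*Cidec* had its libraries in the order of some, but not all, markers of adipocytes. Of the 11 adipocyte markers, 9 passed the filter, with 0 DEGs and 0 at an unadjusted *p*-value under 0.05 (edgeR), and DESeq2 called 0. *Adipoq*, the adipokine adiponectin, had 8.49, 6.48 and 1.59 CPM in GR+/+ and 2.59, 0.166 and 8.65 CPM in GRdim/dim libraries. *Plin1*, the coat protein of adipocyte lipid droplets, had 8.37, 8.87 and 0.858 CPM in GR+/+ and 2.48, 0.125 and 8.98 CPM in GRdim/dim libraries. GRdim/dim replicate 2 was the lowest of all 6 libraries in *Cidec* and in 6 of the 11 markers, and GR+/+ replicates 1 and 2 and GRdim/dim replicate 3 were the 3 highest in *Cidec* and in 5 of them. Both held for 4 markers, *Adipoq*, *Plin1*, *Cfd* and *Car3*, of which all but *Cfd* were chosen after their values were seen. *Cfd*, the complement factor adipsin, ranged from 5.52 to 125 CPM, and *Car3*, a carbonic anhydrase, from 7.27 to 86.5 CPM. The other markers departed from this order. *Lipe*, the hormone-sensitive lipase, had 92.2, 91.6 and 81.0 CPM in GR+/+ and 47.3, 119 and 129 CPM in GRdim/dim libraries, so that GRdim/dim replicate 2 was its second highest. *Plin4*, another lipid droplet coat protein, had the same 3 highest libraries as *Cidec* but was, like *Acvr1c* and *Retn*, lowest in GR+/+ replicate 3. *Cidea*, a relative of *Cidec*, was lowest in GRdim/dim replicate 2 (1.29 CPM) but higher in GR+/+ replicate 3 (3.62 CPM) than in GR+/+ replicate 1 (2.09 CPM). The summed level of all adipocyte markers was 116 to 301 CPM in GR+/+ and 124 to 393 CPM in GRdim/dim lungs. *Ucp1*, the uncoupling protein of brown fat, had 19.3 CPM in GR+/+ replicate 2 and at most 0.17 CPM elsewhere. The part of adipose tissue in the *Cidec* values was not tested. The other lipid genes of the 10 did not share this order, since *Abcg1* was highest in GRdim/dim replicate 1 and *Pparg* in GR+/+ replicate 3.

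**Figure D3:**
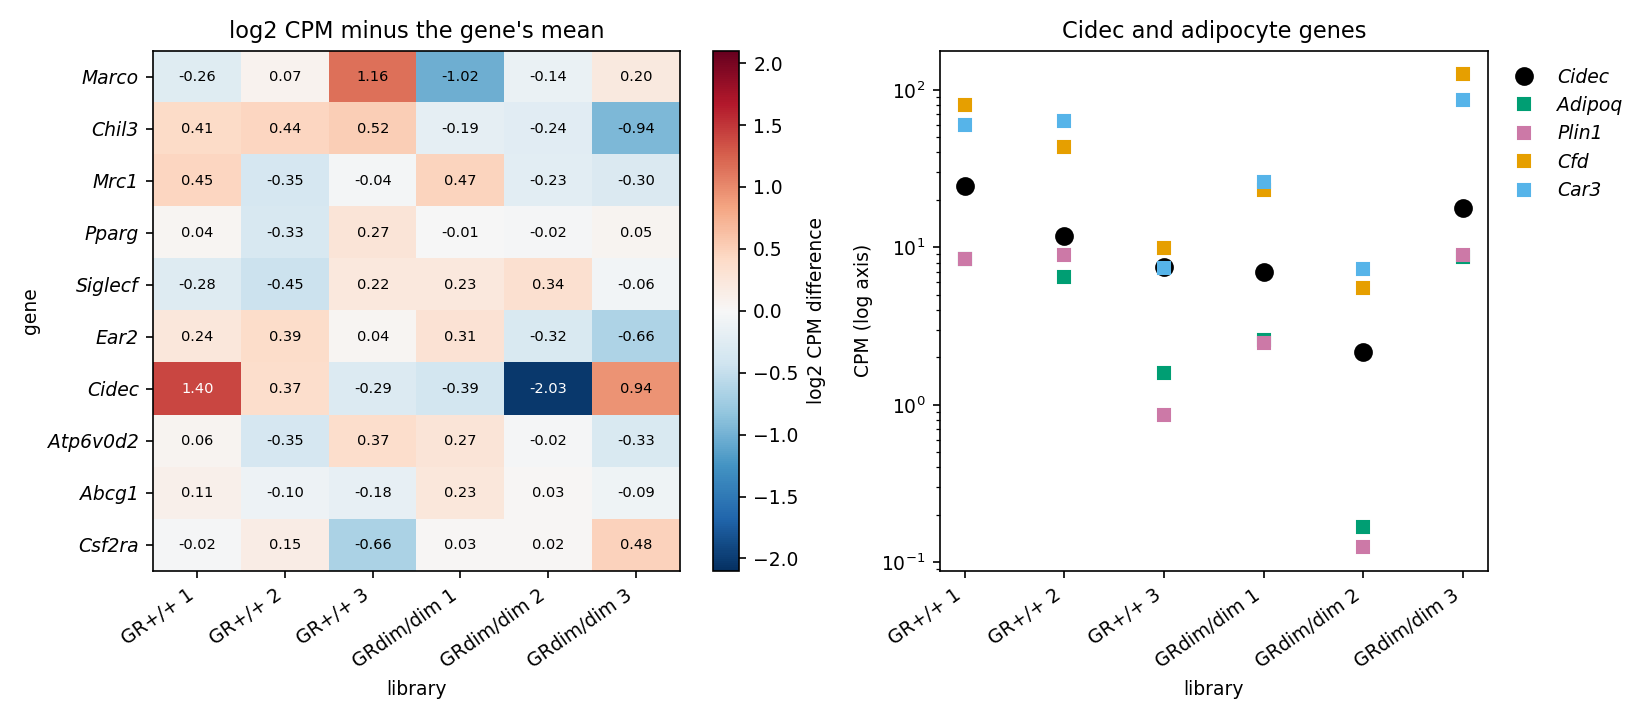
Left, log2 CPM of each gene minus its mean over the 6 libraries, with red above and blue below the mean. Right, CPM (log axis) of *Cidec* (black circles) and of 4 adipocyte genes chosen after their values were seen or by abundance (colored squares) in the same libraries, all lowest in GRdim/dim replicate 2, where *Cidec* had 2.16 CPM.

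The 10 genes did not rise and fall together from lung to lung. GR+/+ replicate 3 was the highest library for 4 of them (*Marco*, *Chil3*, *Pparg* and *Atp6v0d2*) and at the same time the lowest for *Abcg1* and *Csf2ra*. GR+/+ replicate 2 was the lowest for 4 genes (*Mrc1*, *Pparg*, *Siglecf* and *Atp6v0d2*) and the highest for *Ear2*. The median deviation of the 10 genes from their own means was between -0.08 and 0.13 on the log2 scale in every library. Their mean standardized profile was 0.35, -0.34 and 0.27 standard deviations in the GR+/+ libraries and 0.31, -0.25 and -0.33 in the GRdim/dim libraries, above 0 in GR+/+ replicates 1 and 3 and GRdim/dim replicate 1. The nearest of all other genes tested, *Gpr89*, *Nbas*, *Ammecr1*, *Gm37353* and *Larp1*, had root-mean-square differences of 0.609 to 0.614 standard deviations from it over 6 libraries. None of these is a macrophage marker in the lists used here.

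The summed level of the 10 genes was 492 to 528 CPM in GR+/+ and 358 to 437 CPM in GRdim/dim libraries, which did not overlap. This sum is carried by *Chil3*. Without it, the other 9 genes summed to 256 ± 24.1 CPM in GR+/+ and 256 ± 22.5 CPM in GRdim/dim lungs (SD, n = 3 each).

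Of a separate list of 21 other alveolar macrophage genes 20 passed the filter, and 16 of these had a log2FC below 0, where 49.1% of all genes tested did. Their median was -0.33, against 0.01 over all genes. With single libraries left out the number below 0 lay between 13 (without GR+/+ replicate 3) and 16. edgeR and DESeq2 both called 0 of them. At an unadjusted *p*-value under 0.05 from edgeR, 4 were lower (4.68% of all genes tested were lower) and 1 was higher (4.91% of all). The libraries did not overlap for 5 lower genes (7.05% of all) and 1 higher gene (7.77% of all). The 4 lower genes were *Mertk*, *F7*, *Lpl* and *Ctsk*, and the higher one was *Itgax*.

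*Mertk*, the receptor by which macrophages bind dying cells, had 83.4, 93.9 and 66.1 CPM in GR+/+ and 43.9, 65.1 and 30.5 CPM in GRdim/dim libraries, a log2FC of -0.80 (SE 0.26, edgeR-adjusted *p* = 0.360). *Lpl*, lipoprotein lipase, had 355, 387 and 316 CPM in GR+/+ and 269, 260 and 124 CPM in GRdim/dim libraries, a log2FC of -0.70 (SE 0.27, edgeR-adjusted *p* = 0.452). In both genes all GRdim/dim lungs were below all GR+/+ lungs, and GRdim/dim replicate 3 was the lowest, as it was for *Chil3*. *F7*, coagulation factor VII, had a log2FC of -0.64 (SE 0.24) and *Ctsk*, the protease cathepsin K, one of -0.57 (SE 0.23). These genes did not overlap between genotypes either, but both were lowest in GRdim/dim replicate 1, not replicate 3. The GRdim/dim libraries had 6.31, 7.77 and 6.59 CPM of *F7* and 13.9, 18.7 and 19.2 CPM of *Ctsk*. *Itgax*, which encodes the integrin CD11c of alveolar macrophages and dendritic cells, had 29.9, 26.4 and 22.6 CPM in GR+/+ and 43.0, 34.8 and 31.1 CPM in GRdim/dim libraries. The log2FC of *Itgax* was 0.47 (SE 0.20). *Fabp5*, a fatty acid-binding protein and one of the most abundant genes of the list per kilobase, overlapped between genotypes (log2FC -0.30, SE 0.34).

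The 20 genes summed to 827 to 840 CPM in GR+/+ and 601 to 626 CPM in GRdim/dim libraries. Without *Lpl*, *Mertk* and *Fabp5*, which were left out after their values were seen, the sums were 285 to 306 CPM and 221 to 316 CPM and overlapped. *Lpl*, *Mertk*, *Fabp5* and *Fabp4* are also made by cells other than macrophages in the lung.

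**Figure D4:**
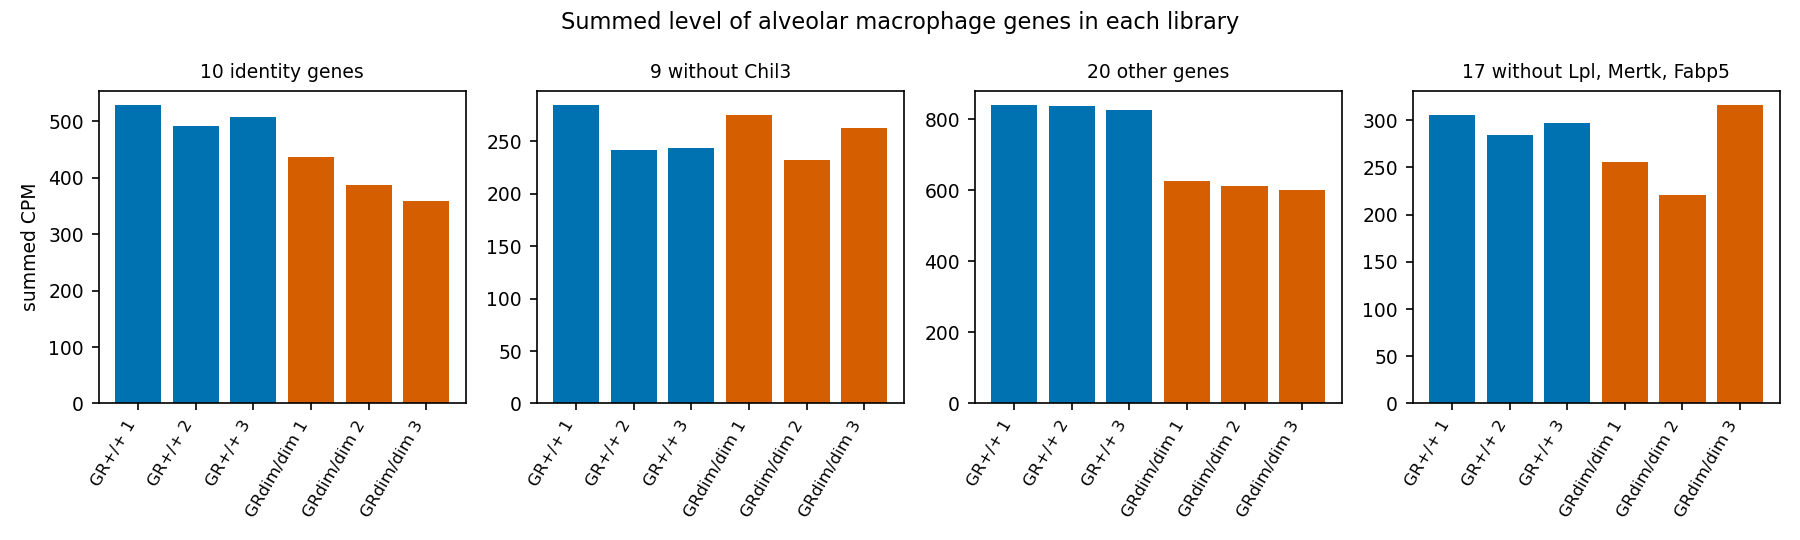
Summed TMM-scaled CPM (vertical axis, from 0) in each library of GR+/+ (blue) and GRdim/dim (orange) for the 10 genes, the 9 without *Chil3*, the 20 other alveolar macrophage genes, and the 17 left without *Lpl*, *Mertk* and *Fabp5*. The genotypes are apart for the 10 and the 20 genes (492 to 528 against 358 to 437 CPM, and 827 to 840 against 601 to 626 CPM) and overlap in the other panels, each without its most abundant genes.

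Of 18 genes of the GM-CSF and TGF-beta signalling that programs alveolar macrophages, 14 had a log2FC above 0 and 4 below. Over all genes tested, 49.1% were below 0. edgeR and DESeq2 called 0 of the 18, and their median log2FC was 0.14. With edgeR's unadjusted *p*-value under 0.05, 1 was higher (4.91% of all genes) and 0 were lower (4.68% of all). The higher gene was *Bhlhe40*, a transcription factor of macrophage renewal (log2FC 0.52, SE 0.19, edgeR-adjusted *p* = 0.437). *Csf2*, which encodes GM-CSF, had 2.88 to 4.29 CPM in GR+/+ and 2.37 to 4.65 CPM in GRdim/dim libraries. *Csf2rb*, the signalling partner of *Csf2ra*, was like it lowest in GR+/+ replicate 3, with 32.3 CPM there and 50.5 to 81.4 CPM in the other 5 libraries. *Itgb6*, the epithelial integrin chain that activates TGF-beta, had a log2FC of 0.63 (SE 0.30, edgeR-adjusted *p* = 0.549). *Cebpb* and *Tgfbr2*, the most abundant genes of the list per kilobase, had log2FC values of 0.44 (SE 0.44) and 0.06 (SE 0.25). *Csf2* and *Csf2rb* were chosen after their values were seen.

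Of 20 lipid genes under PPAR-gamma and the liver X receptors, 0 were DEGs with edgeR and 1 with DESeq2, which called 1.7% of all genes. The median log2FC was -0.24. With edgeR's unadjusted *p*-value under 0.05, 2 were higher (*Scarb1* and *Plin2*) and 2 lower (*Lpl* and *Angptl4*). Of all genes tested, 4.91% were higher and 4.68% lower. *Scarb1*, a receptor for high-density lipoprotein and the gene DESeq2 called, had 181, 127 and 98.2 CPM in GR+/+ and 407, 164 and 331 CPM in GRdim/dim libraries. GRdim/dim replicate 2 lay within the GR+/+ range, and the log2FC was 1.15 (SE 0.33, edgeR-adjusted *p* = 0.297). *Cd36*, a fatty acid receptor, and *Apoe*, an apolipoprotein, were the most abundant per kilobase, with log2FC values of 0.17 (SE 0.28) and 0.38 (SE 0.35).

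Other subunits of the V-ATPase, 22 genes with *Atp6v0d1*, the widely expressed counterpart of *Atp6v0d2*, among them, gave 0 DEGs with edgeR or DESeq2 and 0 genes at an unadjusted *p*-value under 0.05 from edgeR. Their median log2FC was 0.11. *Atp6v0d1* had 91.3 to 104 CPM in GR+/+ and 99.9 to 120 CPM in GRdim/dim libraries. *Atp6v0e*, a small membrane subunit, was the one with the smallest *p*-value among higher genes, with a log2FC of 0.27 (SE 0.15, edgeR-adjusted *p* = 0.615), and *Atp6v0e2* had -0.43 (SE 0.22, edgeR-adjusted *p* = 0.576). The most abundant per kilobase, *Atp6ap1* and *Atp6v1g1*, had log2FC values of 0.21 (SE 0.17) and -0.26 (SE 0.25).

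Of 36 relatives of the 10 genes, 35 had a row and 26 passed the filter. edgeR called 0 of them and DESeq2 2, *Scarb1* and *Scara5*, where DESeq2 called 1.7% of all genes. *Scara5*, a scavenger receptor of the same class as *Marco* that takes up ferritin, had 8.43, 9.29 and 6.32 CPM in GR+/+ and 3.07, 3.53 and 1.29 CPM in GRdim/dim libraries, without overlap. Its log2FC was -1.59 (SE 0.38, edgeR-adjusted *p* = 0.199). At an unadjusted *p*-value under 0.05 from edgeR 5 relatives were higher and 2 lower (4.91% and 4.68% of all genes tested). The higher ones were *Scarb1*, which takes up lipoproteins like *Cd36*, and 4 lectins of the family of *Siglecf* (*Cd22*, *Siglecg*, *Cd33* and *Siglech*), which B cells, myeloid cells and plasmacytoid dendritic cells carry. Besides *Scara5* the lower one was *Abcg2*, a drug and porphyrin exporter related to *Abcg1*, with 49.8 to 70.3 CPM in GR+/+ and 33.1 to 45.4 CPM in GRdim/dim libraries. *Chil1*, the other abundant chitinase-like gene, had a log2FC of -0.03 (SE 0.22).

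Genes of other cell types that could carry the 10 genes were measured in the same libraries. Of 12 neutrophil markers 10 passed the filter, and 9 of these had a log2FC above 0, with a median of 0.90 (0.46 with the covariate for sex-linked expression). Over all genes tested, 49.1% were below 0. edgeR called 0 of the 10 and DESeq2 2 (*Ngp* and *Retnlg*), where DESeq2 called 1.7% of all genes. With edgeR's unadjusted *p*-value under 0.05, 4 were higher (4.91% of all). Their summed level was 282 to 548 CPM in GR+/+ and 386 to 1181 CPM in GRdim/dim libraries, highest in GRdim/dim replicate 1. *S100a8* and *S100a9*, the most abundant neutrophil genes, had 397 and 348 CPM in that library and at most 132 and 167 CPM in the other 5. Of 10 monocyte markers 8 were above 0, with a median of 0.59 and 0 DEGs with either tool. With edgeR's unadjusted *p*-value under 0.05, 3 were higher (4.91% of all genes) and 1 lower (4.68% of all). The lower one was *Ace*, which lung endothelium also makes, with a log2FC of -0.87 (SE 0.33), and *Nr4a1*, a nuclear receptor of patrolling monocytes and an early response gene, had 1.78 (SE 0.57). The monocyte markers summed to 1158 to 2345 CPM in GR+/+ and 1194 to 2311 CPM in GRdim/dim libraries, which overlapped. *Ace* is part of this sum, so it is not a level of monocytes alone. The part of neutrophils and monocytes in the level of *Chil3* was not tested.

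Of 12 interstitial macrophage markers 11 passed the filter, with a median log2FC of 0.11 and 0 DEGs with edgeR. *Pf4*, a platelet and macrophage chemokine, and *Lyve1*, a hyaluronan receptor of these macrophages and of lymphatic vessels, were both called by DESeq2 and were the 2 higher ones at an unadjusted *p*-value under 0.05 from edgeR, with log2FC values of 1.32 (SE 0.34) and 1.06 (SE 0.34). DESeq2 called 1.7% of all genes, and 4.91% were higher at that *p*-value from edgeR. *Lyve1* had 1154 CPM in GRdim/dim replicate 1 and 278 to 493 CPM elsewhere. *Mrc1* was also highest in GRdim/dim replicate 1, with 63.5 CPM, but had nearly as much, 62.3 CPM, in GR+/+ replicate 1. The complement genes *C1qa*, *C1qb* and *C1qc*, which mark interstitial macrophages more than alveolar ones, had log2FC values of 0.01, 0.11 and 0.11, and *Csf1r*, the receptor of macrophage growth, had 0.18 (SE 0.20). Of 8 dendritic cell markers, 3 were higher at an unadjusted *p*-value under 0.05 from edgeR (4.91% of all genes). Of these 8 markers, 0 were DEGs with edgeR and 1, *Ccr7*, with DESeq2 (1.7% of all genes). *Clec9a*, a receptor of cross-presenting dendritic cells and the most abundant of them per kilobase, had a log2FC of -0.35 (SE 0.32). Eosinophil markers summed to 0.96 to 2.75 CPM in GR+/+ and 2.52 to 2.66 CPM in GRdim/dim libraries, and 1 of 6, *Alox15*, passed the filter, with 0.54 to 1.89 CPM. *Epx*, the eosinophil peroxidase gene, was at most 0.37 CPM. *Ear2* had 10.6 CPM or more in every library, and the part of eosinophils in its level was not tested. Of 8 alveolar type 2 and 4 lymphatic markers that passed the filter, 0 were DEGs with edgeR or DESeq2 and 0 had an unadjusted *p*-value under 0.05 from edgeR, with median log2FC values of -0.11 and 0.26. The surfactant genes *Sftpb* and *Sftpc* had -0.06 (SE 0.22) and 0.17 (SE 0.29), the phosphate transporter *Slc34a2* and the transcription factor *Etv5* -0.33 (SE 0.23) and -0.34 (SE 0.20). Of the lymphatic genes, *Prox1* had 0.53 (SE 0.31), *Mmrn1* 0.24 (SE 0.21) and *Flt4* -0.25 (SE 0.37).

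**Figure D5:**
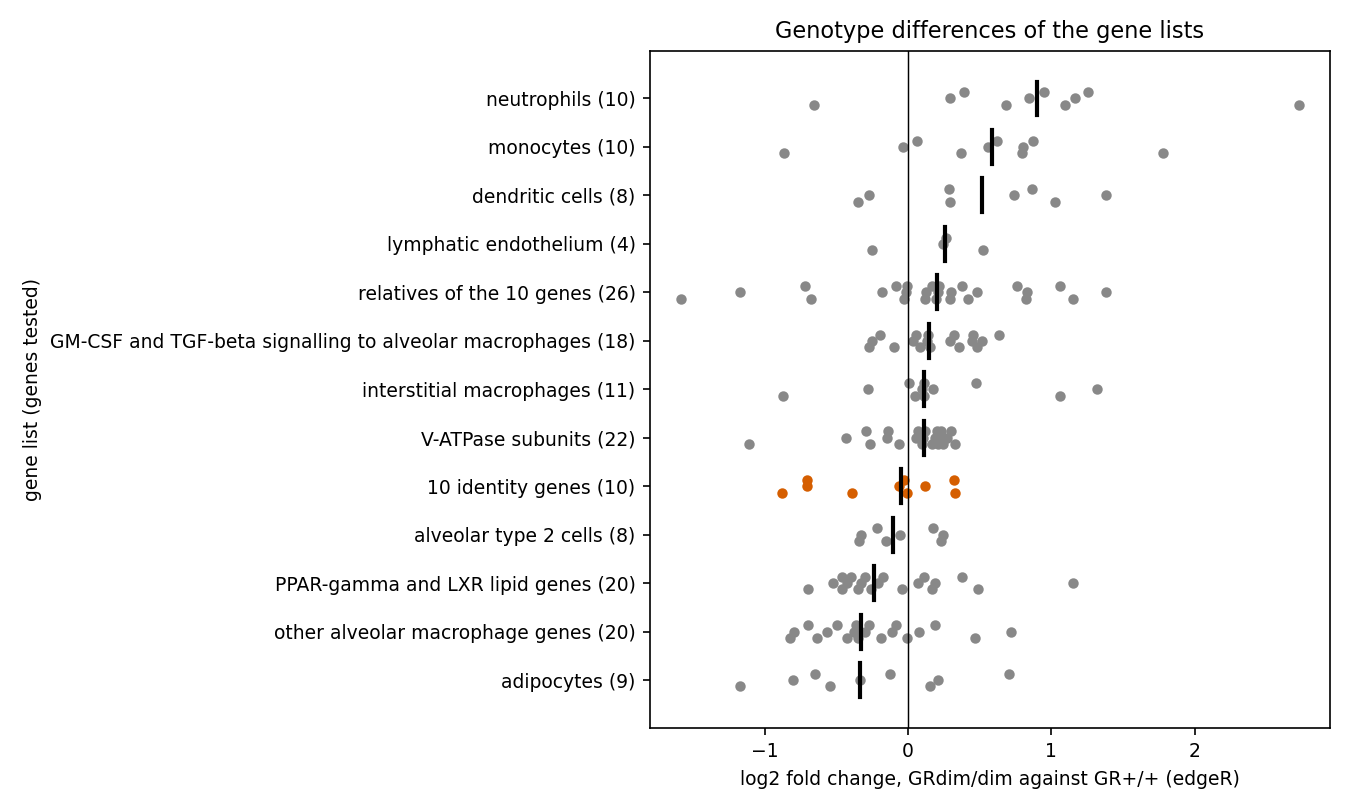
Log2FC of GRdim/dim against GR+/+ from edgeR (horizontal axis) for each gene that passed the filter, by gene list, with the number of genes in brackets and the median as a black bar. The 10 identity genes (orange) have a median of -0.05, between the 20 other alveolar macrophage genes at -0.33 and the neutrophil markers at 0.90.

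Total counts were 15687734 to 32082940 per library, and GR+/+ replicate 3, which set the extremes of *Marco* and *Csf2ra*, was the deepest. *Nr3c1*, the mutated gene, had 148 ± 12.2 CPM in GR+/+ and 143 ± 20.2 CPM in GRdim/dim lungs (SD, n = 3 each), and counts per gene cannot show the mutation itself.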

How the data were processed

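RNA-sequencing of lung tissue gave raw read counts per Ensembl gene, which the authors deposited as whole numbers without normalization or pooling. The labels name mm10 and DESeq2. Aligner, counter, annotation release and strand setting are not given in the sources used here. Of the 54532 genes, 53548 had the coordinates of GENCODE M21, and *Abcg1* and *Csf2ra* did not. Counts were analysed in R 4.3.3 with edgeR 4.0.16 (filterByExpr, TMM scaling, robust quasi-likelihood test, Benjamini-Hochberg adjustment over all genes tested) on all 6 libraries without covariates. DESeq2 1.42.0 served as alternative. The labels used here give no sex per mouse, so the covariate for sex-linked expression was *Xist* against Y-linked genes. Log2 CPM had a prior count of 2, and intervals are 95% intervals of the edgeR fit. The genes and lists were chosen with earlier results of these data known. Named were the 10 genes, *Nr3c1*, the 5 genes nearest to their profile and, per list, DEGs, the 2 most abundant per kilobase and the 2 with the smallest *p*-values. Further genes named were chosen after their values were seen. *Ear3* had no row. The procedure was tested on simulated data, where, of the changes set for this comparison, edgeR recovered 34.7% at 2-fold and 84.3% at 4-fold with 6.53% false calls, and DESeq2 51% and 88% with 19.2% false calls. Libraries of one genotype differed by far more than sampling noise and were used as separate mice.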

Additional observations from a re-analysis of the deposited data

How the results depend on the processing

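edgeR called 0 of the 10 genes with RLE scaling, at least 10 counts in every library, a covariate for sex-linked expression, the replicate number as a block, or no limit on fold size, and in all 6 fits that each lacked a library. It called 1, *Chil3*, without a filter on low counts, and DESeq2 called 1 (*Chil3*) on all genes or on the filtered ones, and 0 to 1 with single libraries left out. At an unadjusted *p*-value under 0.05 from edgeR, 2 genes in place of 1 passed without a filter (*Chil3* and *Marco*), with the replicate block (*Chil3* and *Marco*) and with the covariate for sex-linked expression (*Chil3* and *Cidec*), and 1 to 2 with single libraries left out. In the fit used above 9.6% of all genes tested passed. That share was not computed for the other fits, so these counts of the 10 genes have no background. The median log2 fold change of the 10 genes was between -0.27 and 0.020 with single libraries left out. Signs changed only for genes near 0, namely *Mrc1* (-0.32 to 0.22 with single libraries left out), *Pparg* (-0.15 to 0.14, and 0.013 with the replicate block) and *Atp6v0d2* (-0.23 to 0.12). DESeq2 with a library left out changed the same signs, to 0.21, 0.074 and 0.11 for *Mrc1* (without GR+/+ replicate 1 and GRdim/dim replicates 2 and 3), to 0.14 for *Pparg* (without GR+/+ replicate 3), and to 0.13 and 0.077 for *Atp6v0d2* (without GR+/+ replicate 3 and GRdim/dim replicate 3). The cause was not tested. Over all genes edgeR gave 28 DEGs, 522 without a filter and 4 to 22 with single libraries left out, and DESeq2 gave 274. The labels do not pair same-numbered libraries, whose deviations from the group means correlated at 0.25, 0.04 and -0.17. By sex-linked expression, replicate 1 looked male and replicate 2 female in both genotypes, so the replicate block is not independent of sex. That block gave 34 DEGs. The DESeq2 fits on filtered genes and with left-out libraries were chosen after seeing the data. With 3 lungs per genotype, even the 95% interval of *Abcg1*, the steadiest of the 10 genes, ran from 0.837 to 1.41 times the GR+/+ level. That of *Chil3* ran from 0.393 to 0.754 times.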
